A study of Mus musculus with 8 samples.

Results

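The Wnt ligands, the Frizzled receptors, their coreceptors and the regulators of the pathway were examined in tumor endothelial cells with and without an induced vascular overexpression of PPARβ/δ. Members were chosen by gene symbol, as the Wnt, Frizzled, Dkk and Sfrp families together with Lrp5, Lrp6, Ryk, Ror1, Ror2, Wif1, Apcdd1, Axin1, Axin2, Ctnnb1 and the genes of the TCF/LEF factors. In this way 51 of the 35756 genes in the table were taken. They comprise 19 Wnt ligands, 10 Frizzled receptors, 2 LRP coreceptors, 3 other Wnt receptors, 9 secreted antagonists, 1 membrane antagonist, 2 scaffolds of the destruction complex, β-catenin and 4 TCF/LEF factors.

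Wnt proteins are lipid-modified secreted ligands that bind Frizzled receptors and the coreceptors Lrp5 and Lrp6 at the cell surface. Binding stops the destruction complex, built on Axin, from degrading β-catenin, which then enters the nucleus and activates target genes with TCF/LEF factors. In blood vessels the pathway is best known from the retina and the brain, where Fzd4, Lrp5 or Lrp6 and the tetraspanin Tspan12 receive the ligand Norrin, and where Wnt7a and Wnt7b act on endothelial cells to form the blood-brain barrier.

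RNA sequencing was done on cells from subcutaneous LLC1 tumors, a Lewis lung carcinoma line of the mouse, in 4 Tie2-CreERT2;PPARβ/δ + Tamoxifen mice and 4 Tie2-CreERT2;PPARβ/δ + vehicle mice. Both groups carried the Tamoxifen-inducible Cre recombinase under the Tie2 promoter and the heterozygous PPARβ/δ-flox+/− allele on a C57BL/6 background according to the labels and methods, and they differed in the injection of Tamoxifen or of sunflower oil before the tumor cells were implanted. The labels call the Tamoxifen mice Ppard overexpression and the vehicle mice wild-type, and the mice were matched for age and sex without the ages being given. Tumor endothelial cells were taken from the tumors with CD31 beads, and the libraries bear unshared numbers (such as Tax2604 and oil2453), read here as 1 mouse per number. Tie2 is also active in some blood-borne cells, and Tie2-CreERT2 mice given Tamoxifen are not among the libraries, so that overexpression, Tamoxifen and Cre activity cannot be told apart.

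Each library held between 19730726 and 24884372 counts, so that the limit set by a count of 0 (3 counts) lay between 0.115 and 0.181 CPM (counts scaled by TMM to 1e+06 per library). Ppard itself was at 108 ± 24.6 CPM in Tamoxifen libraries and 74.4 ± 15.2 CPM in vehicle libraries (SD, n = 4 each), with Tax2689 at 70.9 CPM inside the vehicle range (log2 fold change 0.53 with an SE, the standard error, of 0.25, adjusted p = 0.460 in edgeR's quasi-likelihood test). All 15 pan-endothelial markers were detected in all 8 libraries, and their summed level was 2501 to 4819 CPM with Tamoxifen and 406 to 1379 CPM with vehicle, without overlap. For 12 mural cell markers the sum was 654 to 962 CPM with Tamoxifen and 58.1 to 234 CPM with vehicle. The largest part of it in each library was Mcam. On average Mcam gave 398 of 759 CPM with Tamoxifen and 81.0 of 171 CPM with vehicle. Of the 12 mural markers 8 were higher with Tamoxifen without overlap, whereas Acta2, Tagln, Kcnj8 and Cnn1 overlapped. The 10 macrophage and monocyte markers summed to more than the endothelial ones in each library, with 8448 to 15405 CPM in Tamoxifen and 4968 to 12081 CPM in vehicle libraries. In such bulk samples, fewer cells of a type and less RNA per cell cannot be told apart. Beside the group difference, oil2453 stood out by 4 hemoglobin genes of red blood cells (6236 CPM, against 24.1 to 518 CPM with Tamoxifen and 120 to 262 CPM in the other 3 vehicle libraries). It also had the highest sum of epithelial and carcinoma markers (770 CPM, against 128 to 231 CPM with Tamoxifen and 170 to 210 CPM in the other 3 vehicle libraries). Most of that sum was Krt8 (378 CPM) and Krt18 (353 CPM), which were highest in oil2453, as was Krt19. Cdh1 was lowest there (10.1 CPM), and Epcam, Cldn4 and Krt7 were highest in oil2653, Tax2604 and Tax2382. The macrophage and monocyte markers were lowest in oil2453 (4968 CPM). The library oil2653 stood out by its T, NK and B cell markers and Tax2382 by its low sum of fibroblast markers.

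Of the 51 members, 31 had enough counts to be tested and 20 had not. The untested members reached at most 38 counts in any library, a value of Wnt2 in oil2453, and Wnt3a, Wnt8b and Dkk4 had 0 counts in all 8 libraries. With edgeR's quasi-likelihood test, 0 of the 31 tested members passed an adjusted p of 0.05, where 0 of all 14539 tested genes did (0%). At an unadjusted p under 0.05, 3 members (9.68%) were higher with Tamoxifen, namely Fzd4, Fzd6 and Fzd8, beside 7.39% of all genes tested, and 0 members were lower, beside 3.54% (10.9% of all genes in either direction). The Tamoxifen libraries lay all above the vehicle libraries for Fzd4, Fzd8 and Ctnnb1 (3 of 31, 9.68%), beside 5.87% of all genes, and all below them for 0 members, beside 2.01% of all genes. The median log2 fold change of the tested members was 0.17, against −0.03 over all genes tested, with 19 members positive and 12 negative. These shares are close to the background, and the class with the largest median was the Frizzled receptors (0.54, 6 of 7 tested members positive), whereas that of the Wnt ligands was −0.02 (3 of 7 positive).

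**Figure D1:**
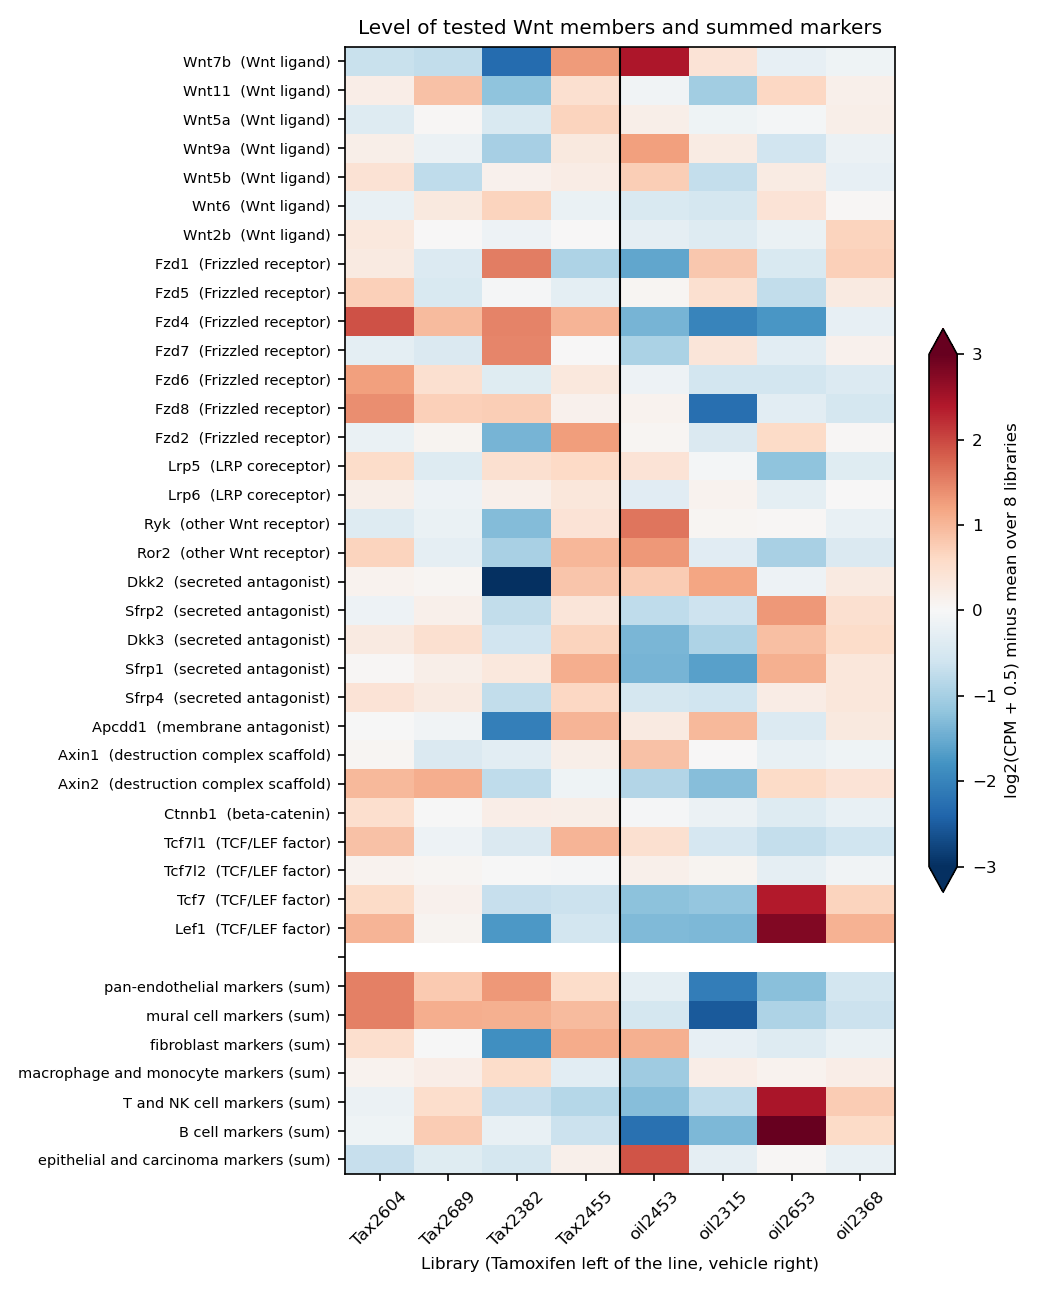
Level of the 31 tested members in each library (columns, 4 Tamoxifen libraries left of the line and 4 vehicle libraries right of it), coloured by log2(CPM + 0.5) minus its mean over the 8 libraries, with the summed levels of 7 marker lists at the foot. Fzd4 is red in all 4 Tamoxifen and blue in all 4 vehicle libraries, as are the endothelial and mural marker sums, whereas Tcf7 and Lef1 stand out in oil2653 and Wnt7b and Ryk in oil2453.

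**Figure D2:**
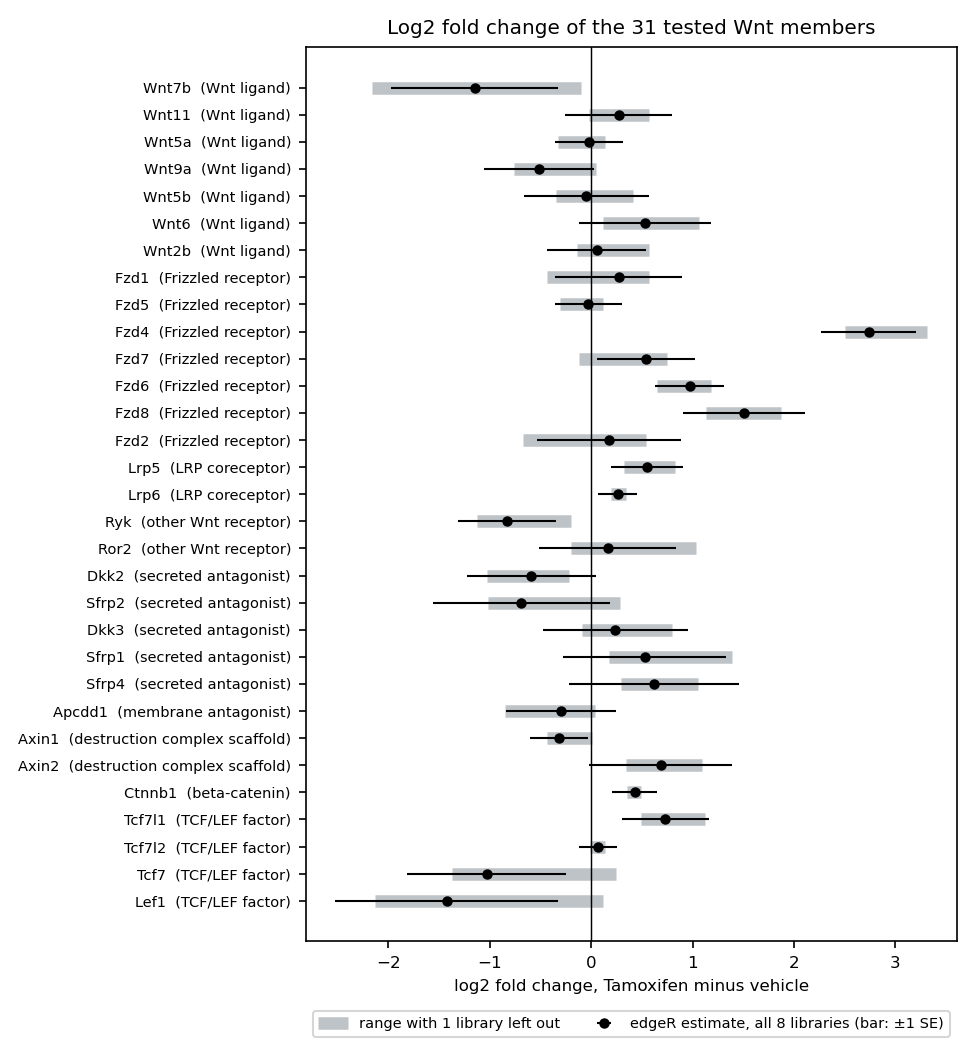
Log2 fold change (Tamoxifen minus vehicle, x axis) of the 31 tested members by role, as edgeR's estimate from 8 libraries (points, bars ±1 standard error) and as the range of estimates with 1 library left out (grey). Fzd4, at 2.73, is the only member whose range stays above 2, and 17 of the 31 grey ranges cross 0.

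Few of the Wnt ligands had more than trace counts. Wnt7b, a ligand of brain vessel formation, accounted for 38.8 ± 17.0% of the summed FPKM (fragments scaled by gene length and depth, the authors' values) of all 19 ligands in Tamoxifen libraries and for 58.2 ± 18.2% in vehicle libraries (SD, n = 4 each). Wnt11 came next with 23.3 ± 10.3% with Tamoxifen and 15.3 ± 10.8% with vehicle, followed by Wnt5a with 17.7 ± 6.81% with Tamoxifen and 12.7 ± 5.32% with vehicle, both known for signaling that bypasses β-catenin. The order of the group means was thus the same in both groups, and the shares of Wnt11 and Wnt5a lie within each other's spread. By library, Wnt7b had the highest share of these in all 4 vehicle libraries but in 2 of the 4 Tamoxifen libraries, since Wnt11 was above it in Tax2689 (36.9% for Wnt11 and 31.4% for Wnt7b) and Wnt5a in Tax2382 (27.6% for Wnt5a and 23.8% for Wnt7b).

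Wnt7b was at 15.8, 15.2, 4.76 and 62.5 CPM in Tax2604, Tax2689, Tax2382 and Tax2455, against 139, 34.4, 21.5 and 23.4 CPM in oil2453, oil2315, oil2653 and oil2368. The groups overlapped, and the highest value was that of oil2453, the lowest that of Tax2382. Its log2 fold change was −1.15 (SE 0.82, adjusted p = 0.596 in edgeR's test) and came to −0.10 without oil2453. Fibroblast markers (10 of 10 tested, none at 0 in a library) summed to 400 CPM in Tax2382, their lowest sum, and to 2982 CPM in oil2453. Their highest sum was 3072 CPM, in Tax2455, and Col3a1 was the largest part of the sum in each library (2488 CPM in oil2453). The sums of the epithelial and carcinoma markers (7, of which Cldn4 was at 0 in oil2315) and of the hemoglobin genes were highest in oil2453. Per 1000 fibroblast marker counts Wnt7b had 12.7 ± 5.37 counts with Tamoxifen and 28.4 ± 12.8 counts with vehicle, with overlap and with oil2453 still highest at 46.6 counts. The ratio of the group means was 0.447 on this scale and 0.451 in CPM, and the part of epithelial and red blood cells in the Wnt7b values was not tested.

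The other ligands gave log2 fold changes from −0.51 to 0.53. Wnt9a was at 2.24 ± 0.947 CPM in Tamoxifen and 3.21 ± 2.17 CPM in vehicle libraries (log2 fold change −0.51, SE 0.54). Wnt11 had 6.06 ± 3.19 CPM in Tamoxifen and 5.02 ± 2.37 CPM in vehicle libraries (0.27, SE 0.53). For Wnt5a the means were 5.39 ± 2.27 CPM in Tamoxifen and 5.46 ± 0.641 CPM in vehicle libraries (−0.02, SE 0.34). These differences are smaller than the spread between libraries. Wnt5b, Wnt6 and Wnt2b lay between 0.139 and 1.75 CPM in all libraries. Of the 12 untested ligands, Wnt1, Wnt3 and Wnt7a had no more than 1 count in any library, and Wnt7a, the other ligand of brain vessels, gave 1 count over all 4 Tamoxifen libraries and 0 over all 4 vehicle libraries. Wnt2, Wnt10b and Wnt8a reached 38, 23 and 19 counts in their highest library.

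The Frizzled receptors are the seven-pass membrane proteins that bind the ligands, and 7 of the 10 were tested. Fzd4 (ENSMUSG00000049791, chromosome 7, 89404366 to 89410110, GRCm38), the receptor of Norrin in retinal vessels, had the largest fold change among the members. It was at 33.9, 17.3, 25.2 and 18.0 CPM in Tax2604, Tax2689, Tax2382 and Tax2455, against 2.96, 1.81, 2.23 and 7.17 CPM in oil2453, oil2315, oil2653 and oil2368. The lowest Tamoxifen library thus lay above the highest vehicle library, oil2368, and the ratio of the group means was 6.67. Its log2 fold change was 2.73 (SE 0.47, unadjusted p = 0.000211, adjusted p = 0.0732 in edgeR's quasi-likelihood test), which missed the threshold. That adjusted p, shared by several genes, was also the lowest among the 14539 genes tested.

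Whether Fzd4 was called depended on the fit. Without oil2453 edgeR's adjusted p was 0.0444 (where 1.72% of all genes were called, all of them higher) and without oil2368 it was 0.0255 (0.21% of all genes), whereas it was 0.268 without oil2653. It was 0.0344 with library size alone (1.22% of all genes called) and 0.0412 with no low-count filter (0.29% of all genes). DESeq2 gave an adjusted p of 5.0e-06, in a fit that called 3.95% of all genes, 3.78% higher and 0.165% lower. Fzd4 was the only member called in each of these 5 fits, and limma-voom gave an adjusted p of 0.0557. The log2 fold change lay between 2.50 and 3.31 with any 1 library left out.

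Fzd8 was at 10.4, 6.35, 6.37 and 4.07 CPM in the Tamoxifen libraries, against 3.98, 0.371, 2.83 and 2.38 CPM in the vehicle libraries, in the same order as above. The groups did not overlap, though Tax2455 and oil2453 were separated by little, and oil2315 was far below the others. The log2 fold change was 1.51 (SE 0.60, adjusted p = 0.417 in edgeR's test). Fzd6, a receptor known for the orientation of hairs in mouse skin, was at 28.7, 16.9, 9.26 and 15.1 CPM with Tamoxifen, against 10.8, 8.02, 8.05 and 8.86 CPM with vehicle. Here Tax2382 lay below oil2453, while the other 3 Tamoxifen libraries were above each vehicle library (log2 fold change 0.97, SE 0.34, adjusted p = 0.326 in edgeR's test).

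Fzd7 was at 10.9, 9.78, 38.2 and 13.7 CPM in the Tamoxifen libraries, against 6.69, 17.6, 10.8 and 14.8 CPM in the vehicle libraries. Only Tax2382 lay above all vehicle libraries. Its log2 fold change of 0.54 (SE 0.48, adjusted p = 0.676 in edgeR's test) became −0.12 without Tax2382. Fzd1 was at 36.7, 22.7, 88.6 and 15.7 CPM with Tamoxifen, against 9.95, 53.2, 22.1 and 50.3 CPM with vehicle. It was again highest in Tax2382 and lowest in oil2453, and its log2 fold change of 0.27 (SE 0.63) became −0.44 without Tax2382. The sum of fibroblast markers was lowest in Tax2382 (400 CPM), where both receptors were highest. The sum of macrophage and monocyte markers was highest there (15405 CPM), and the part of either cell type in these values was not tested. Fzd5, required for yolk sac vessels in mouse embryos, was at 33.8 ± 13.4 CPM in Tamoxifen and 34.4 ± 11.2 CPM in vehicle libraries (log2 fold change −0.03, SE 0.33). Fzd2 stayed between 0.212 and 3.95 CPM, and Fzd3, Fzd9 and Fzd10 were not tested, with at most 5, 20 and 2 counts in a library.

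Per unit of length, the order of the receptors differed between the groups. In Tamoxifen libraries Fzd1 was at 9.82 ± 7.17 FPKM, Fzd5 at 7.12 ± 2.75, Fzd4 at 6.61 ± 2.01, Fzd6 at 4.50 ± 2.11, Fzd7 at 4.03 ± 2.67 and Fzd8 at 2.10 ± 0.792 FPKM, and neighbours in this order do not differ beyond their spread. In vehicle libraries Fzd1 was at 8.31 ± 5.62 FPKM, Fzd5 at 6.84 ± 2.68, Fzd7 at 2.77 ± 1.30, Fzd6 at 2.09 ± 0.0876, Fzd4 at 0.934 ± 0.697 and Fzd8 at 0.654 ± 0.366 FPKM. Here the ranges of Fzd6 (2.01 to 2.21 FPKM) and Fzd4 (0.526 to 1.98 FPKM) did not overlap, whereas those of the other neighbours did. Fzd4 was thus the third of the receptors with Tamoxifen and the fifth with vehicle. Its share of the summed FPKM of the 10 receptors was 21.9, 19.8, 14.4 and 21.0% in the Tamoxifen libraries, against 4.92, 1.70, 3.81 and 6.79% in the vehicle libraries. This share sets Fzd4 against its own family within each library and did not overlap between the groups (19.3 ± 3.36% in Tamoxifen and 4.31 ± 2.13% in vehicle libraries, SD, n = 4 each). The share of Fzd5 was 20.8 ± 5.23% with Tamoxifen and 31.7 ± 7.53% with vehicle.

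**Figure D3:**
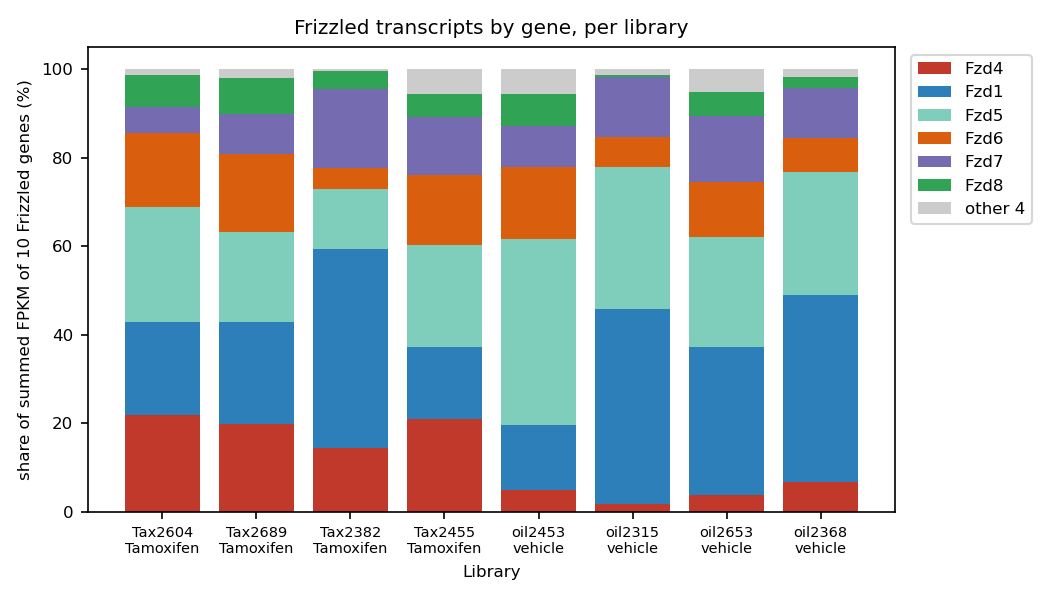
Share of each Frizzled gene in the summed FPKM of the 10 Frizzled genes (y axis, percent) in each library, with the 4 Tamoxifen libraries on the left and the 4 vehicle libraries on the right. The share of Fzd4 (red, at the foot) is 14.4% to 21.9% with Tamoxifen and 1.70% to 6.79% with vehicle.

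Because the endothelial markers differed between the groups in the same direction, the members were also set against them. Per 1000 counts of the 15 pan-endothelial markers, Fzd4 had 7.04, 5.90, 6.00 and 7.21 counts in the Tamoxifen libraries, against 2.14, 4.45, 3.11 and 6.18 counts in the vehicle libraries. On this scale the groups overlapped through oil2368 (6.54 ± 0.682 with Tamoxifen and 3.97 ± 1.75 with vehicle). Per 1000 counts of the 12 mural cell markers, of which Mcam was the largest part, Fzd4 had 30.7 ± 5.66 counts with Tamoxifen and 22.4 ± 11.3 counts with vehicle. For Fzd8 the values per 1000 endothelial counts were 1.87 ± 0.344 with Tamoxifen and 2.45 ± 1.28 with vehicle, also overlapping. Fzd6 was lower with Tamoxifen on this scale in all libraries, at 2.20 to 6.05 counts with Tamoxifen and 7.63 to 19.8 counts with vehicle. The higher level of Fzd8 and Fzd6 in CPM went together with a larger difference in endothelial markers, and the part of cell composition in these values was not tested further.

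With libraries scaled to the pan-endothelial markers in edgeR, the median log2 fold change of all genes moved by −2.62, to −2.65, and 91.4% of all genes tested were called lower. Of the 31 members 25 were called lower, and 20 of the 31 lay above that median. Fzd4 was the only member with a positive log2 fold change, 0.45 (adjusted p = 0.591 in edgeR's test). Fzd8 was at −0.53 and Fzd6 at −1.60, both above the median of all genes.

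**Figure D4:**
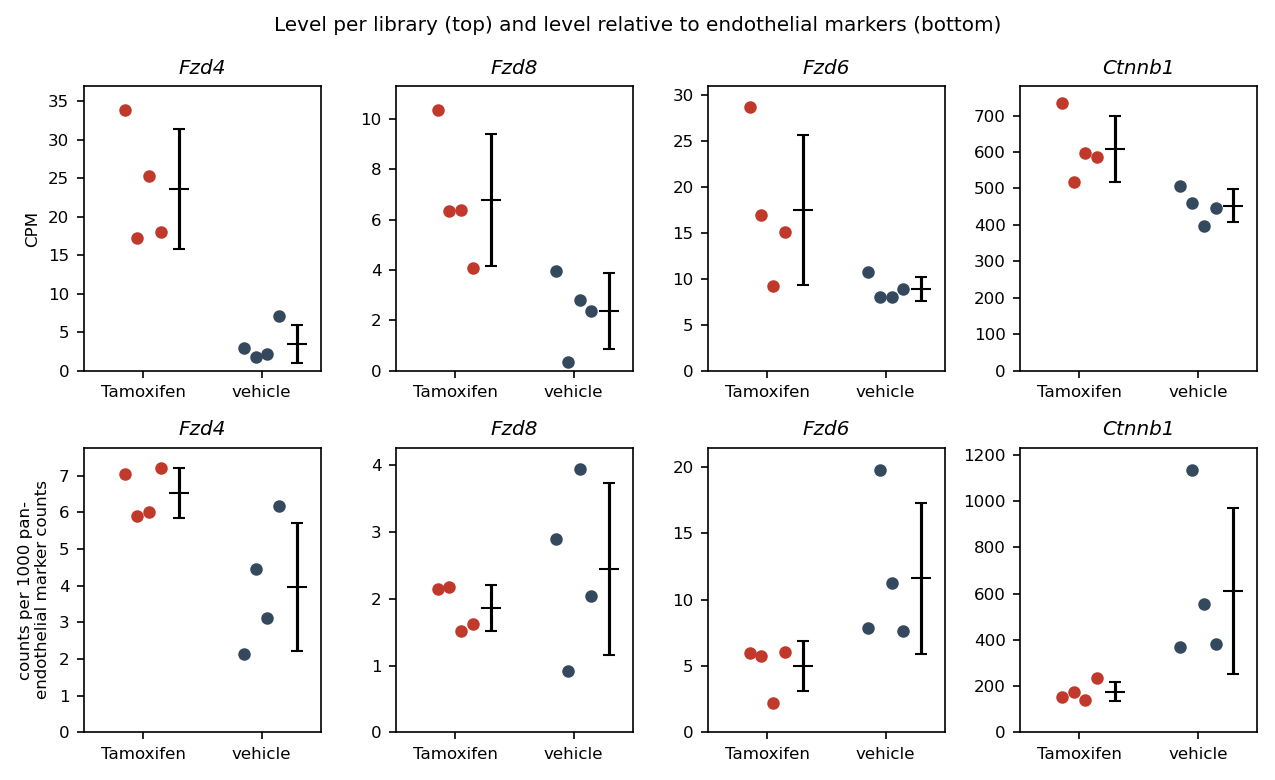
Fzd4, Fzd8, Fzd6 and Ctnnb1 in each library (points, 4 Tamoxifen libraries left and 4 vehicle libraries right in each panel) as CPM in the upper panels and as counts per 1000 counts of the 15 pan-endothelial markers in the lower panels, with the group mean and SD. Fzd4 is higher with Tamoxifen on both scales in its means but overlaps on the second. The means of Fzd8, Fzd6 and Ctnnb1 are higher with Tamoxifen in CPM and lower on the second scale. Fzd6 overlaps between the groups in CPM and Fzd8 on the second scale.

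To show the region before the members whose groups did not overlap, the promoters of Fzd4 and Ctnnb1 were taken from RefSeq (GRCm38.p6), from 250 bases before to 50 bases after the transcription start. That of Fzd4 lies on the plus strand at chr7:89404116-89404415, and that of the upstream start of Ctnnb1 on the plus strand at chr9:120933150-120933449. Capitals mark the letters CCAAT, read on either strand, the box bound by the factor NF-Y.
Fzd4: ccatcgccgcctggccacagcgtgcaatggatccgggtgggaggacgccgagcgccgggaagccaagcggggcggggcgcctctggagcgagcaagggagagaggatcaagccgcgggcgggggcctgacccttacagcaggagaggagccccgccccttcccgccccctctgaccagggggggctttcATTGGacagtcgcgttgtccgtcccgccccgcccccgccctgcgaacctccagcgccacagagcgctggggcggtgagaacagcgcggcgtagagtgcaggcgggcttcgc
Ctnnb1: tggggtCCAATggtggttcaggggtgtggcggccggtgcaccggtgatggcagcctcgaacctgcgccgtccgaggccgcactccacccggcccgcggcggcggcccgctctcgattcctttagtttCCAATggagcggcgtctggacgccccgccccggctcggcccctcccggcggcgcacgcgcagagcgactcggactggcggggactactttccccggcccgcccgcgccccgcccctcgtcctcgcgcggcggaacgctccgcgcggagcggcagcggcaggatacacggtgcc
The letters CCAAT are present on either strand in 37.4% of the 32851 mouse promoters of this length. The 19 tested members with a promoter entry have 28 promoters. CCAAT was found in 7 of the 28, for Axin2, Ctnnb1, Dkk2, Fzd4, Fzd5, Fzd7 and Wnt2b. PPARβ/δ binds as a partner of RXR to a direct repeat of the half-site AGGTCA with 1 base between the copies. The exact letters AGGTCANAGGTCA, searched on both strands, occurred in 0 of the 28 promoters of these members and in 0.0396% of all promoters. The single half-site AGGTCA was present in 1 of the 28 promoters, for Tcf7, beside 16.3% of all promoters, and is part of that repeat. ETS letters CCGGAAG were found in 1 of the 28 promoters, for Tcf7, beside 8.86% of all promoters. TATAAA was found in 8 of the 28, including a second start of Ctnnb1, beside 13.6% of all promoters. The TCF/LEF letters CTTTGAT were found in 2 of the 28 promoters, for Wnt11 and Wnt5b, beside 3.73% of all promoters. Fzd6 and Fzd8 have no entry in this table.

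The coreceptors Lrp5 and Lrp6 carry the signal into the cell together with a Frizzled receptor. Lrp5 was at 135, 70.7, 129 and 141 CPM in the Tamoxifen libraries, against 124, 89.3, 40.0 and 71.8 CPM in the vehicle libraries. Tax2689 lay within the vehicle range, and so the groups overlapped (log2 fold change 0.55, SE 0.35, adjusted p = 0.553 in edgeR's test). Lrp6 was at 60.7, 48.0, 59.8 and 68.6 CPM with Tamoxifen, against 42.2, 57.7, 44.0 and 54.3 CPM with vehicle (log2 fold change 0.26, SE 0.20, adjusted p = 0.621 in edgeR's test). Per unit of length Lrp5 (25.1 ± 6.83 FPKM in Tamoxifen and 15.5 ± 5.17 FPKM in vehicle libraries) and Lrp6 (14.4 ± 2.34 FPKM in Tamoxifen and 11.3 ± 3.02 FPKM in vehicle libraries) were above each single Frizzled receptor on average. Per 1000 pan-endothelial counts Lrp6 was lower with Tamoxifen without overlap, with 12.6 to 27.4 counts against 30.6 to 142 counts with vehicle. This is not particular to Lrp6, since scaling to these markers gave 91.4% of all genes tested as lower.

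Ryk, a receptor with an extracellular domain that binds Wnt and an inactive kinase domain, was at 32.4, 36.9, 17.0 and 57.2 CPM in the Tamoxifen libraries, against 131, 44.7, 43.4 and 36.7 CPM in the vehicle libraries. As for Wnt7b, oil2453 was highest and Tax2382 lowest. The log2 fold change was −0.83 (SE 0.48, adjusted p = 0.515 in edgeR's test), and −0.20 without oil2453. Per 1000 fibroblast marker counts Ryk had 25.9 ± 11.9 counts with Tamoxifen and 37.6 ± 5.89 counts with vehicle, with overlap, and Tax2382, at 42.5 counts, was then highest among the Tamoxifen libraries. Ror2, a receptor of Wnt5a, was at 3.69 ± 2.32 CPM in Tamoxifen and 3.32 ± 3.04 CPM in vehicle libraries, and its relative Ror1 was not tested, with 51 counts over the Tamoxifen libraries and 15 counts over the vehicle libraries.

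Among the secreted antagonists, Dkk2 was by far the most abundant. Dkk1, Dkk2 and Dkk4 bind Lrp5 and Lrp6, Dkk3 is a divergent relative of them, and Sfrp proteins and Wif1 bind the ligands themselves. Dkk2 made up 86.5 ± 9.97% of the summed FPKM of the 9 antagonists in Tamoxifen and 91.5 ± 9.47% in vehicle libraries (SD, n = 4 each). It was at 81.4, 79.2, 8.75 and 136 CPM in the Tamoxifen libraries, against 129, 173, 68.1 and 91.9 CPM in the vehicle libraries. The groups overlapped, with Tax2382 far below the others (log2 fold change −0.59, SE 0.63, adjusted p = 0.733 in edgeR's test, and −0.22 without Tax2382). Apcdd1, a membrane protein that binds Wnt and Lrp proteins and dampens the signal, was at 49.6, 46.7, 11.7 and 103 CPM with Tamoxifen, against 60.7, 98.9, 37.6 and 61.4 CPM with vehicle. It was lowest in the same library (log2 fold change −0.30, SE 0.54, adjusted p = 0.861 in edgeR's test), and at 0.04 without Tax2382 its log2 fold change had the other sign.

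Tax2382 was also the library with the lowest sum of the 10 fibroblast markers, 400 CPM against 1402 to 3072 CPM in the other 3 Tamoxifen and 1095 to 2982 CPM in the vehicle libraries. Col3a1, Dcn, Lum, Pdgfra and Dpt were lowest there. Col1a1, Col1a2, Fbln1, Fap and Mfap5 were lowest in a vehicle library instead. Per 1000 fibroblast marker counts Dkk2 still was lowest in Tax2382, at 21.9 counts, and Apcdd1 was not, at 29.2 counts within the range of 24.5 to 33.4 counts over the Tamoxifen libraries and of 20.4 to 82.2 counts over the vehicle libraries. The part of fibroblasts in these values was not tested further.

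Sfrp1, Sfrp2, Sfrp4 and Dkk3, the other tested antagonists, were at 4.30 CPM or less in each library, and their log2 fold changes ran from −0.69 for Sfrp2 to 0.62 for Sfrp4, with an SE from 0.71 to 0.87. Sfrp1 and Dkk3 were lowest in oil2453 and oil2315 and highest in oil2653 or Tax2455. Wif1 had 2 counts over the 4 Tamoxifen libraries and 32 counts over the 4 vehicle libraries, 24 of them in oil2653. Dkk1 had 1 count in 1 Tamoxifen library and Dkk4 had none.

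In the cytoplasm, the scaffold Axin1 was at 74.0, 52.6, 57.2 and 80.9 CPM in the Tamoxifen libraries, against 132, 71.7, 61.2 and 64.9 CPM in the vehicle libraries. Its log2 fold change of −0.32 (SE 0.29, adjusted p = 0.682 in edgeR's test) rested on oil2453 and was 0.01 without it. Ryk, Axin1, Ror2 and Tcf7l1 all had their highest vehicle value in oil2453. The sums of hemoglobin genes and of epithelial and carcinoma markers, the latter mostly Krt8 and Krt18, were highest there. Their part in these values was not tested. Axin2, which takes the same role and is itself a general target of β-catenin, was at 2.79 ± 1.79 CPM in Tamoxifen and 1.72 ± 1.29 CPM in vehicle libraries (log2 fold change 0.68, SE 0.70).

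Ctnnb1 (ENSMUSG00000006932, chromosome 9, 120929216 to 120960507), the gene of β-catenin, was the most abundant member, at 422 ± 61.3 FPKM in Tamoxifen and 291 ± 31.8 FPKM in vehicle libraries (SD, n = 4 each). Besides its part in the pathway, β-catenin links cadherins to the cytoskeleton at cell contacts. It was at 734, 517, 596 and 587 CPM in the Tamoxifen libraries, against 506, 460, 397 and 445 CPM in the vehicle libraries. The groups did not overlap, though Tax2689 and oil2453 lay close to each other. The log2 fold change was 0.43 (SE 0.22, adjusted p = 0.481 in edgeR's test) and 0.35 to 0.49 with 1 library left out. Per 1000 pan-endothelial counts it was lower with Tamoxifen without overlap, at 142 to 235 counts with Tamoxifen and 367 to 1134 counts with vehicle. These markers summed to 3613 CPM on average with Tamoxifen and 916 CPM with vehicle. With libraries scaled to them 91.4% of all genes tested were called lower, so the lower value is not particular to Ctnnb1.

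The 4 TCF/LEF factors bind the target genes. Tcf7l1, which mostly represses targets in the absence of β-catenin, was at 21.6, 10.4, 8.46 and 24.0 CPM in the Tamoxifen libraries, against 16.5, 7.98, 6.90 and 7.54 CPM in the vehicle libraries. All Tamoxifen libraries were above the vehicle libraries other than oil2453 (log2 fold change 0.73, SE 0.42, adjusted p = 0.517 in edgeR's test, and 1.12 without oil2453). Tcf7l2 varied least among the members, with 20.7 ± 0.924 CPM in Tamoxifen and 19.8 ± 2.54 CPM in vehicle libraries (log2 fold change 0.06, SE 0.19).

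Tcf7, a factor of T cells and their precursors, was at 15.0, 10.8, 5.95 and 6.18 CPM in the Tamoxifen libraries, against 3.92, 4.13, 53.3 and 15.9 CPM in the vehicle libraries. The highest value, in oil2653, was more than the sum of the other 3 vehicle libraries, and the groups overlapped (log2 fold change −1.03, SE 0.78, adjusted p = 0.623 in edgeR's test, and 0.24 without oil2653). Lef1, expressed in lymphocytes and in endothelium of the brain, was at 5.36, 2.58, 0.382 and 1.50 CPM with Tamoxifen, against 0.663, 0.649, 19.5 and 5.44 CPM with vehicle. It was highest in the same library (log2 fold change −1.43, SE 1.10, adjusted p = 0.627 in edgeR's test, and 0.11 without oil2653).

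The sums of lymphocyte markers were also highest in oil2653. Among the Tamoxifen libraries they were highest in Tax2689, whereas Tcf7 and Lef1 were highest in Tax2604. The 10 T and NK cell markers, of which Ncr1 was at 0 in oil2453, summed to 23.4 to 62.0 CPM with Tamoxifen and 17.3 to 237 CPM with vehicle, with oil2653 highest. The 6 B cell markers summed to 39.4 to 104 CPM with Tamoxifen and 12.6 to 587 CPM with vehicle, again with oil2653 highest. Per 1000 counts of the T and NK cell markers Tcf7 had 174 to 394 counts with Tamoxifen and 165 to 226 counts with vehicle, and oil2653, at 225 counts, was within the range of the others. Lef1 had 14.5 to 141 counts with Tamoxifen and 25.9 to 82.4 counts with vehicle on this scale. On the scale of these markers neither gene was lower with Tamoxifen on average (Tcf7 264 ± 93.7 counts with Tamoxifen and 209 ± 29.5 with vehicle, Lef1 65.2 ± 54.2 counts with Tamoxifen and 55.4 ± 27.5 with vehicle). The part of lymphocytes in the levels of Tcf7 and Lef1 was not tested.

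**Figure D5:**
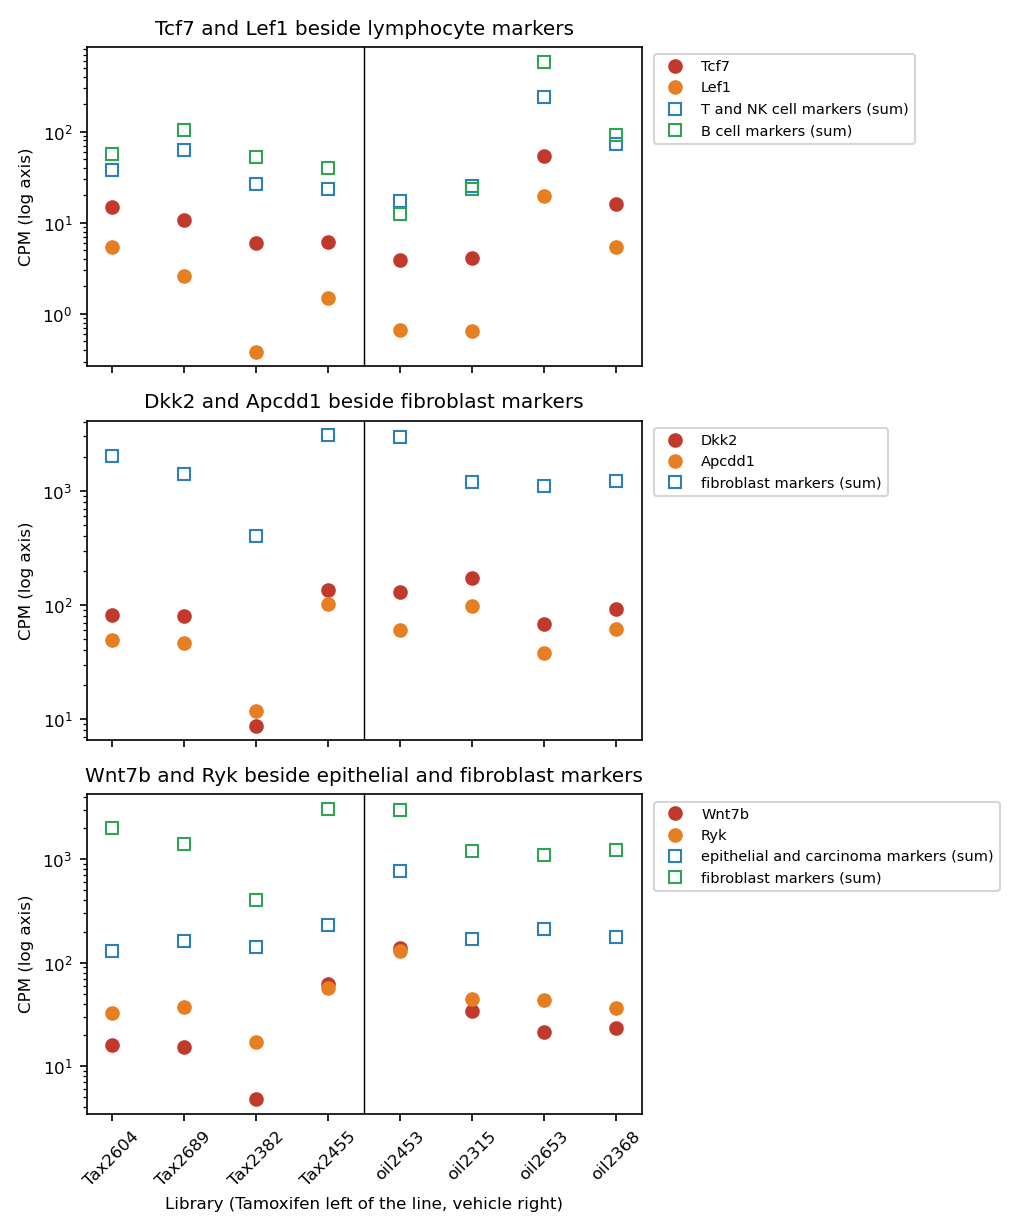
Level of 6 members (filled circles) and summed markers of other cell types (open squares) in each library, as CPM on a log axis, with the 4 Tamoxifen libraries left of the line and the 4 vehicle libraries right of it. Tcf7 and Lef1 peak with the lymphocyte markers in oil2653, Dkk2 and Apcdd1 dip with the fibroblast markers in Tax2382, and Wnt7b and Ryk peak in oil2453.

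The remaining genes of the pathway were taken from a list of 66, of which 54 were tested. At an unadjusted p under 0.05 in edgeR's test 6 of the 54 (11.1%) were higher with Tamoxifen and 0 lower, against the 7.39% and 3.54% of all genes given above, and none passed the adjusted threshold. The median log2 fold change was 0.33. Tspan12, which joins Fzd4 in the receptor of Norrin, was at 17.0, 17.3, 11.5 and 9.94 CPM in the Tamoxifen libraries, against 6.27, 1.76, 2.61 and 4.84 CPM in the vehicle libraries. It thus did not overlap between the groups either (log2 fold change 1.85, SE 0.42, adjusted p = 0.119 in edgeR's test). Per 1000 pan-endothelial counts Tspan12 was at 4.04 ± 1.35 counts with Tamoxifen and 4.18 ± 0.386 counts with vehicle. Ndp, the gene of Norrin, had 0 counts in all 8 libraries, and the 4 Rspo genes, whose proteins enhance Wnt signaling, had too few counts to be tested.

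The other 5 were at less than 6 CPM apart from Ctnnbip1, an inhibitor of the binding of β-catenin to TCF factors, which was at 26.6 ± 4.04 CPM in Tamoxifen and 15.8 ± 6.94 CPM in vehicle libraries (log2 fold change 0.75, SE 0.30, adjusted p = 0.421 in edgeR's test). Trabd2b, a protease that inactivates Wnt ligands, was at 3.65 ± 1.21 CPM in Tamoxifen and 0.833 ± 0.490 CPM in vehicle libraries (2.12, SE 0.58, adjusted p = 0.179 in edgeR's test). Prickle2, of the planar polarity branch, was at 1.97 ± 1.18 CPM in Tamoxifen and 0.427 ± 0.308 CPM in vehicle libraries (2.17, SE 0.66, adjusted p = 0.237 in edgeR's test). Reck, which presents Wnt7 ligands to the receptor together with Gpr124, was at 2.79 ± 0.720 CPM in Tamoxifen and 1.29 ± 0.342 CPM in vehicle libraries (1.11, SE 0.38, adjusted p = 0.307 in edgeR's test). Nkd1 antagonizes the pathway at Dishevelled and is one of its targets, and it was at 1.45 ± 0.592 CPM in Tamoxifen and 0.316 ± 0.305 CPM in vehicle libraries (2.15, SE 0.83, adjusted p = 0.394 in edgeR's test). All of these except Ctnnbip1 were without overlap between the groups. Per 1000 pan-endothelial counts Trabd2b, Prickle2, Nkd1 and Reck overlapped between the groups, and the mean of Reck was lower with Tamoxifen (0.822 ± 0.338 counts with Tamoxifen and 1.60 ± 0.582 counts with vehicle).

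Target genes of the pathway were read from a list of 22, which includes the members Apcdd1, Axin2, Lef1 and Tcf7. Of the 17 tested, 3 (17.6%) were higher with Tamoxifen at an unadjusted p under 0.05 in edgeR's test and 0 lower, against 7.39% and 3.54% of all genes. Over the 17 the median log2 fold change was 0.02, with 9 positive and 8 negative. None passed the adjusted threshold, the lowest adjusted p being 0.183 for Sox17 in edgeR's test. The 3 higher at the unadjusted p were Nkd1, Sox17, an endothelial transcription factor (52.3 ± 17.1 CPM in Tamoxifen and 11.9 ± 9.93 CPM in vehicle libraries, log2 fold change 2.14), and Plvap, a protein of endothelial fenestrae that Wnt signaling lowers in brain vessels (805 ± 283 CPM in Tamoxifen and 187 ± 136 CPM in vehicle libraries, 2.10). Per 1000 pan-endothelial counts Sox17 had 14.6 ± 2.22 counts with Tamoxifen and 11.5 ± 5.54 with vehicle, and Plvap 220 ± 18.2 counts with Tamoxifen and 186 ± 85.4 with vehicle, both with overlap. Of the 8 tested targets of brain endothelium 5 were positive, and Slc2a1 (−0.43), Mfsd2a (−0.69) and Foxf2 (−1.16) were negative, these 3 with overlap. The general targets among the members differed in direction, Axin2 being positive (0.68) and Apcdd1, Tcf7 and Lef1 negative (−0.30, −1.03 and −1.43), each with overlap between the groups. Outside the members, Myc (−1.14) and Rnf43 (−0.50) were negative and Nkd1, Ccnd1 (0.43) and Znrf3 (0.02) positive.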

How the data were processed

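The members and the marker, pathway and target lists were chosen with earlier results of these data known. Libraries were prepared with the NEBNext Ultra kit. The authors removed reads with adapters, poly-N or low quality and deposited whole-number counts per gene made with HTSeq 0.6.1. Bowtie2 2.2.3, TopHat2 2.0.12 and mm8 stand in the submitters' processing notes, whereas all 51 members lie at positions that overlap those of GRCm38 (GENCODE M21), 36 of them with the same bounds. The authors' deposited FPKM values were used only for levels between genes. The authors' group means of normalized counts (a signal), group FPKM, log2 fold changes, p-values and adjusted p-values are also in the deposited table and were not used. The strand setting of the counting is not given. Exons of 10 members are overlapped by genes on the other strand, which had at most 221 counts where listed.

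In R 4.3.3, edgeR 4.0.16 with TMM normalization and its filter for a minimum count of 10 kept 14539 of 23453 genes with a count. Tamoxifen was tested against vehicle with the quasi-likelihood test, and p was adjusted by Benjamini-Hochberg across those genes with a threshold of 0.05. No p was adjusted over the members alone. The standard error is the absolute log2 fold change over the root of F. The edgeR, DESeq2 and limma-voom fits were also run on simulated counts with known changes. That simulation held no difference in cell composition between the groups, so it cannot show how the fits behave under one. The 15 alternatives were median-of-ratios size factors, library size alone, scaling to 15 pan-endothelial markers, DESeq2 1.42.0, limma-voom (limma 3.58.1), no filter, 10 counts in every library, and each of the 8 libraries left out. Members given in full are those without overlap between the groups, the 12 with the smallest p and the tested member of each role with the highest mean FPKM (16 in all), and of each further list those under an unadjusted p of 0.05, at most 8. Counts per 1000 marker counts are ratios of counts within a library, chosen after the data had been seen. Promoters were available for 35 members, 19 of them tested.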

Additional observations from a re-analysis of the deposited data

Results flagged for a closer look

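In 8 of the 62 groups of 4 libraries examined (31 tested members, each with Tamoxifen and with vehicle), the highest or lowest library lay apart from the other 3, with a gap over the group's range above Dixon's critical value for 4 samples. Chance flags about 1 in 20 such groups where values are normally distributed, and over the 14539 genes tested the same rule flagged 8.12% of such groups, beside 12.9% here. The vehicle library oil2453 accounted for 5 of them. It was at 139 CPM for Wnt7b, with the next vehicle library at 34.4 CPM, at 131 CPM for Ryk (next 44.7 CPM), at 132 CPM for Axin1 (next 71.7 CPM), at 16.5 CPM for Tcf7l1 (next 7.98 CPM) and at 7.84 CPM for Ror2 (next 2.18 CPM). The vehicle library oil2368 was at 1.51 CPM for Wnt2b, with the next at 0.60 CPM. Among the Tamoxifen libraries, Tax2382 was at 38.2 CPM for Fzd7, with the next at 13.7 CPM, and Tax2689 was lowest for Lrp5 at 70.7 CPM, with the next at 129 CPM.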

How the results depend on the processing

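No gene was called with edgeR from all 8 libraries, with median-of-ratios size factors, with limma-voom or with 10 counts in every library. Called genes numbered 177 with library size alone, 574 with DESeq2, 68 with no low-count filter and 13292 with scaling to the pan-endothelial markers, and among the members 1 (Fzd4) was called in each of the first 3 and 25, all lower, in the last. With 1 library left out, 0 to 256 genes and 0 to 1 members were called. The highest counts came without oil2453, and 31 genes were called without oil2368. DESeq2 and edgeR differed on the same counts, and the cause was not tested. Signs changed with library size alone for Wnt5a (0.12), Wnt5b (0.12) and Fzd5 (0.058), with limma-voom for Wnt5b (0.024) and Fzd2 (−0.35), and with 10 counts in every library for Wnt5a (0.011) and Fzd5 (0.0030). Scaling to the pan-endothelial markers, which moved all genes by −2.62, turned 18 members negative: Wnt11 −1.95, Wnt6 −1.78, Wnt2b −2.24, Fzd1 −2.78, Fzd7 −2.36, Fzd6 −1.60, Fzd8 −0.53, Fzd2 −2.01, Lrp5 −2.03, Lrp6 −2.43, Ror2 −1.93, Dkk3 −2.04, Sfrp1 −1.63, Sfrp4 −1.49, Axin2 −1.59, Ctnnb1 −2.20, Tcf7l1 −1.63 and Tcf7l2 −2.57. With 1 library left out, signs also changed within these ranges of log2 fold change: Wnt11 −0.027 to 0.57, Wnt5a −0.32 to 0.14, Wnt9a −0.76 to 0.050, Wnt5b −0.35 to 0.41, Wnt2b −0.14 to 0.57, Fzd1 −0.44 to 0.57, Fzd5 −0.31 to 0.12, Fzd7 −0.12 to 0.75, Fzd2 −0.67 to 0.54, Ror2 −0.20 to 1.03, Sfrp2 −1.02 to 0.29, Dkk3 −0.090 to 0.80, Apcdd1 −0.85 to 0.036, Axin1 −0.44 to 0.011, Tcf7l2 −0.011 to 0.13, Tcf7 −1.37 to 0.24 and Lef1 −2.13 to 0.11. Fzd4, Fzd6, Fzd8, Ctnnb1, Lrp5, Lrp6, Tcf7l1, Wnt6, Sfrp1, Sfrp4 and Axin2 stayed positive in each of these 8 fits, and Wnt7b, Ryk and Dkk2 negative. No paired analysis was possible because the groups share no replicate numbers. The biological coefficient of variation was 0.441 over all genes, and for the 20 untested members, with 0 to 38 counts a library, no difference was tested.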

Other observations

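Other genes of the pathway list can be described by role. All 10 planar polarity genes (Vangl, Celsr, Prickle and Daam genes and Invs) had a positive log2 fold change, beside 6865 of all 14539 genes tested. The values ran from 0.16 to 2.17 with a median of 0.57, beside −0.03 over all genes. Only Prickle2 was below 0.05 in the unadjusted p of edgeR's test. Per 1000 pan-endothelial counts Prickle2 had 0.532 ± 0.186 counts with Tamoxifen and 0.482 ± 0.343 with vehicle. The other genes of this class were not set against these markers. Daam2 was at 4.75 ± 1.78 CPM in Tamoxifen and 1.96 ± 1.34 CPM in vehicle libraries (SD, n = 4 each), with overlap. The 16 genes of the cytoplasmic relay, such as the Dishevelled genes, Apc and the casein kinases, had a median of 0.10, and 0 of them were below that p. For the 12 tested nuclear cofactors the median was 0.09. The 8 tested antagonists had a median of 0.41 (7 positive) and the 6 tested receptors or coreceptors one of 0.47 (4 positive). The 2 genes of Wnt secretion had a median of −0.10 (1 positive). Over the whole list 40 of the 54 tested genes were positive, so a positive value is not particular to the planar polarity genes.

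Wls, which carries Wnt ligands to the cell surface, lay between 53.1 and 151 CPM in Tamoxifen and between 95 and 335 CPM in vehicle libraries, and like Wnt7b and Ryk it was highest in oil2453 and lowest in Tax2382. Myc, a target of the pathway in colon cells, ranged from 118 to 1101 CPM with Tamoxifen and from 384 to 3672 CPM with vehicle, again with oil2453 highest and Tax2382 lowest. The hemoglobin genes summed to 24.1 CPM in Tax2382 and to 6236 CPM in oil2453, their lowest and highest values, and the part of red blood cells in these levels was not tested. Gpr124, the partner of Reck, was at 77.1, 43.9, 35.7 and 104 CPM in Tax2604, Tax2689, Tax2382 and Tax2455, against 93.9, 37.6, 26.7 and 37.2 CPM in oil2453, oil2315, oil2653 and oil2368, and overlapped between the groups. Wls, Myc, Gpr124 and Daam2 were chosen after their values had been seen.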
